A study of Mus musculus with 3 samples.

Results

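The Dlk1-Meg3 imprinted locus was described through its 6 named genes, Meg3, Rian, Mirg, Dlk1, Rtl1 and Dio3, out of 53465 genes in the tables. They were taken by gene symbol, and each symbol had 1 row. The genes were chosen by their measured levels in these same libraries, above all the high Dlk1 of embryonic stroma and its low level in granulosa cells after birth. Their levels and the differences between ages are therefore a description, and none was tested. Whole ovaries of C57BL/6 female mice gave 1 single-cell library at each of 3 ages: embryonic day 16.5 (E16.5; its title gives day 17 instead), and days 7 and 14 after birth (PND7 and PND14). The series describes the ovaries as wild type, and the labels name no treatment and do not say how many animals gave each library. With 1 library per age there is no replicate spread, so every interval below is an exact 95% interval that covers counting error only.

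Imprinted genes are read from the copy of 1 parent. At this locus the copy inherited from the father expresses the protein genes Dlk1, Rtl1 and Dio3, while the copy from the mother expresses long noncoding RNAs, among them Meg3, Rian and Mirg. A methylated control region upstream of Meg3 keeps the sides apart. DLK1 is a transmembrane and shed relative of the Notch ligands that is made by progenitor and stromal cells in the embryo. RTL1 is a retrotransposon-derived protein needed in the placenta, and DIO3 inactivates thyroid hormone. Rian hosts small nucleolar RNAs and microRNAs, and Mirg hosts a large microRNA cluster. The counts do not separate the parental copies, so maternal and paternal here name what is known of each gene and were not measured.

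The 6 genes lie on chromosome 12 within 828.275 kb from the start of Dlk1 to the end of Dio3 (GRCm38 build, GENCODE M21 annotation). Dlk1 (ENSMUSG00000040856) is at chr12:109452823-109463336 on the plus strand. Meg3 (ENSMUSG00000021268) follows at chr12:109541001-109571726, Rian at chr12:109603940-109661716 and Mirg at chr12:109729764-109749460, all on the plus strand. Rtl1 is on the minus strand at chr12:109589193-109600330, between Meg3 and Rian. Dio3 is at chr12:110279068-110281097, plus strand, far from the others. The kit marks the polyadenylated end of an RNA, so counts were not divided by gene length and levels are not compared between genes as molecules made. Whether strand was used in counting is not given in the sources used here. Whether reads of the antisense gene Gm26906 enter the Meg3 counts was therefore not tested. The same holds for Rtl1 and the hairpins opposite it. Rian overlaps 19 other annotated genes, with none on the opposite strand, and Mirg overlaps 15. The part of these in the counts was not tested.

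**Figure D1:**
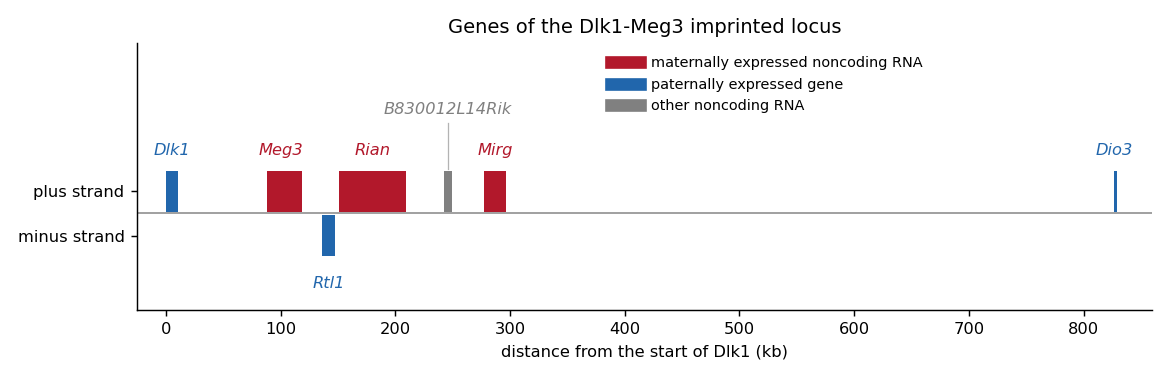
Positions of the genes of the locus, as the distance in kb from the start of Dlk1 (x axis), with plus-strand genes above the line and the minus-strand gene below it. Red boxes are maternally expressed noncoding RNAs, blue boxes paternally expressed genes and grey another noncoding RNA; Dio3 stands apart from the cluster, and the map spans 828.275 kb.

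The promoters of Meg3 and Dlk1 are shown because the results turn on these genes, the most counted RNA of each parental side. Both sequences come from RefSeq (GRCm38.p6, plus strand) and hold 300 bases each, from 250 before the start to 50 after it. Capitals in the Meg3 promoter (chr12:109540746-109541045) mark a cyclic AMP response element, TGACGTCA, whose first base lies at -57, and a stretch with overlapping TATAAA matches on both strands, of which the plus-strand match begins at -25. RefSeq lists another Meg3 start further downstream, which is not shown.
Meg3: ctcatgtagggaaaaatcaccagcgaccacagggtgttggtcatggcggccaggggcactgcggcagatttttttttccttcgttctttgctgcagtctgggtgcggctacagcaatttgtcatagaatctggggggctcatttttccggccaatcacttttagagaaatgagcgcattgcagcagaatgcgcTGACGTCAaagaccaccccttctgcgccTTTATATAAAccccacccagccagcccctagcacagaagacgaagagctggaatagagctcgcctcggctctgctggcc
Dlk1: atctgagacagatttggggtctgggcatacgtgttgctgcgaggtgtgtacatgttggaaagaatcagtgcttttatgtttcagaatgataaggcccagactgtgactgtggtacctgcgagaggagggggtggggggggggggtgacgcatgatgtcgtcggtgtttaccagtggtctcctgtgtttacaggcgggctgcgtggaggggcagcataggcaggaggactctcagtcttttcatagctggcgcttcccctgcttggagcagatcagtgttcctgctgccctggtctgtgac
On either strand, TGACGTCA is found in 1.79% of 32851 mouse promoters of the same length, and TATAAA in 13.6%. The Dlk1 promoter (chr12:109452573-109452872) has neither string. The Meg3 promoter holds 13 CpG sites and the Dlk1 promoter 9, against a median of 7 over all promoters. A match describes the letters in this window and shows no binding.

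Of the RefSeq microRNA hairpins in these genes, 14 lie in Mirg, 3 in Rian and 1 in Meg3 on the same strand, 1 lies in Rtl1 on its own strand, and 6 lie opposite Rtl1. The hairpins opposite Rtl1 give 11 mature microRNAs, and each has a full complement in the annotated Rtl1 transcript. In mice they are known to cut the Rtl1 mRNA. Examples from 3 hairpins are shown because they link the maternal and paternal RNAs by sequence; capitals mark the seed, bases 2 to 8, and no seed is shared among them.
miR-127-3p: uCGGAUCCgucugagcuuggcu
miR-136-5p: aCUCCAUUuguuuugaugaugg
miR-433-3p: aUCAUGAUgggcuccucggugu
They lie at chr12:109592888-109592909, chr12:109595331-109595352 and chr12:109591781-109591802, plus strand. This assay counts polyadenylated RNA and does not measure mature microRNAs.

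The tables held 459, 510 and 585 cell barcodes at E16.5, PND7 and PND14, of which 456, 509 and 583 were kept, and no barcode was shared between libraries. Total UMIs (unique molecular identifiers, so that copies of a captured RNA count once) were 8994085, 8743797 and 9065595. Cells were clustered without the 6 genes, and clusters were named from markers of 9 cell classes, so names end in "-like". Levels are given as CPM, the UMIs of a gene summed over the cells of a class, per 1000000 UMIs of that class. Granulosa-like cells, the somatic cells around the oocyte, numbered 76, 88 and 94, and stroma-like cells 105, 209 and 162. Theca-like cells lie in the follicle wall and were found at PND14 alone (43 cells). The cells of a class did not keep 1 cluster: granulosa-like cells were in cluster 0 at E16.5, mostly cluster 13 at PND7 (83 cells) and mostly cluster 14 at PND14 (86 cells). Stroma-like cells were in cluster 3 at E16.5, mostly cluster 15 at PND7 (198 cells) and mostly cluster 18 at PND14 (143 cells).

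Over whole libraries, Meg3 was the most counted member at every age, Dlk1 came next until PND7, and Rtl1 and Dio3 were nearly absent. Meg3 had 6314, 4566 and 2161 UMIs at E16.5, PND7 and PND14, or 704, 523 and 239 CPM. Rian had 541, 235 and 237 UMIs and Mirg 58, 23 and 24. Dlk1 had 2220, 2640 and 117 UMIs, or 248, 302 and 12.9 CPM, so it was low at PND14 and not at PND7. Dio3 had 6, 6 and 19 UMIs. Rtl1 had 1, 0 and 0 UMIs, and a count of 0, taken as a floor of 3 UMIs, allows up to 0.343 CPM at PND7 and 0.331 CPM at PND14. The noncoding B830012L14Rik, which lies between Rian and Mirg, had 38, 10 and 9 UMIs.

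The maternal RNAs had different courses in the stroma and in granulosa cells. In stroma-like cells Meg3, Rian and Mirg were lower at each later age, whereas in granulosa-like cells they were low at PND7 and high again at PND14. Dlk1 was low in granulosa-like cells from PND7, and was high in the stroma at both E16.5 and PND7.

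**Figure D2:**
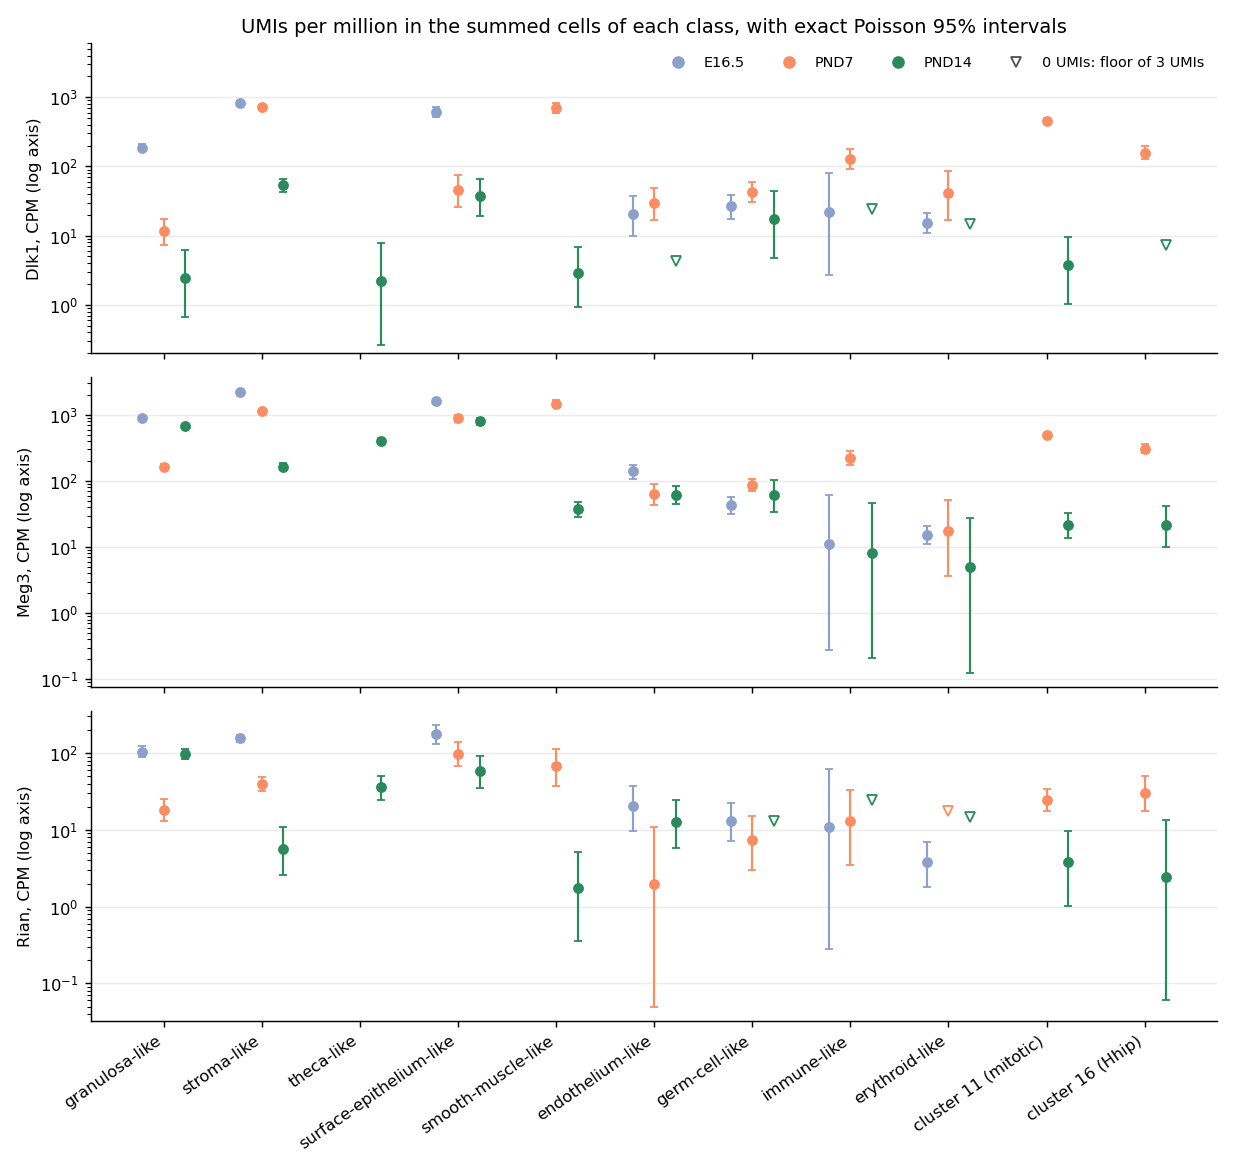
Dlk1, Meg3 and Rian (top to bottom) in CPM on log axes, for each cell class or unnamed cluster (x axis) at E16.5, PND7 and PND14 (left to right); groups under 3 cells are not drawn. Points are summed cells with exact Poisson 95% intervals, and triangles mark the floor of 3 UMIs where 0 were counted. In granulosa-like cells Meg3 stands at 899, 162 and 674 CPM, while in stroma-like cells it stands at 2219.7, 1155 and 164 CPM.

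Meg3, the long noncoding RNA whose transcription runs beside the control region, reached its highest class level in the embryonic stroma. Stroma-like cells held 4198, 2522 and 259 Meg3 UMIs at E16.5, PND7 and PND14, which is 2219.7 CPM at E16.5 (2153 to 2288), 1155 CPM at PND7 (1111 to 1201) and 164 CPM at PND14 (145 to 185). The level was 1.92-fold lower at PND7 than at E16.5 (1.83 to 2.02) and 7.04-fold lower at PND14 than at PND7 (6.19 to 8.03). Rian, with 293, 87 and 9 UMIs, was at 155 CPM at E16.5 (138 to 174), 39.9 CPM at PND7 (31.9 to 49.2) and 5.7 CPM at PND14 (2.61 to 10.8). It was 3.89-fold lower at PND7 than at E16.5 (3.05 to 5) and 6.99-fold lower at PND14 than at PND7 (3.52 to 15.8). Mirg had 30, 14 and 2 UMIs, or 15.9, 6.41 and 1.27 CPM. Their intervals at neighbouring ages do not overlap for Meg3 and Rian, and for Mirg the PND7 interval meets both others.

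Dlk1, the paternal gene, was high in stroma-like cells at E16.5 and PND7 and low at PND14. It had 1570, 1574 and 84 UMIs, which is 830.1 CPM at E16.5 (789.6 to 872), 721 CPM at PND7 (686 to 758) and 53.2 CPM at PND14 (42.5 to 65.9). The ratio of PND7 to E16.5 was 0.869 (0.81 to 0.932). With finer clusters (Leiden resolution 2.0) the direction turned, at 996 CPM at PND7 against 843 CPM at E16.5. At PND14 Dlk1 was 13.5-fold lower than at PND7 (10.9 to 17.1). The little Dlk1 left at PND14 came from few cells: 9 of 162 cells had a UMI, and 1 cell held 64 of the 84 UMIs. Leaving out the 3 cells with most Dlk1 UMIs at each age gives 5.16 CPM at PND14 against 598 CPM at PND7.

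The PND14 library had mostly cluster 18 stroma, led by Cxcl14, Ogn and Dpep1, and the PND7 library mostly cluster 15, led by Dcn, Lum and Lsp1. Dlk1 was lower at PND14 within both clusters. In cluster 15 it was at 379 CPM in 17 cells at PND14 against 749.7 CPM in 198 cells at PND7, and the PND14 value again rests on the cell with 64 of its 68 UMIs. In cluster 18 it was at 11.7 CPM in 143 cells at PND14 against 158 CPM in 10 cells at PND7. Meg3 in cluster 15 was at 352 CPM at PND14 against 1177 CPM at PND7, or 3.35-fold lower (2.61 to 4.37). In cluster 18 it was at 143 CPM at PND14 against 823 CPM at PND7, or 5.74-fold lower (4.33 to 7.55). Both RNAs were thus lower at PND14 within each cluster as well as across clusters.

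The share of cells with a UMI was compared after each cell was thinned to 5000 UMIs, which left out 0 cells. Dlk1 was seen in 87.6% of stroma-like cells at E16.5 (79.8 to 93.2), 56.9% at PND7 (49.9 to 63.7) and 3.09% at PND14 (1.01 to 7.06); without thinning these were 94.3%, 71.8% and 5.56%. Meg3 was seen in 96.2%, 87.6% and 24.1%. Among immune-like and erythroid-like cells together, which should lack both, Dlk1 was seen in 11.3%, 24.1% and 0% (0 of 17 cells at PND14, which allows up to 17.6%) and Meg3 in 9.33%, 31.0% and 0%. Median depths were 12707, 8331 and 8277 UMIs in stroma-like cells and 15792, 11843 and 16550.0 in those blood cells. The share of Dlk1 in PND14 stroma cannot be told from that background, since the limit there is higher. At PND7, immune-like cells held Meg3 at 226 CPM and stroma markers at 40.5% of the stroma level, while erythroid-like cells held Meg3 at 17.7 CPM and stroma markers at 1.46%.

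In thinned stroma-like cells Dlk1 and Meg3 were together in 90 cells at E16.5, 110 at PND7 and 3 at PND14, and the product of the shares gives 88.5, 104.2 and 1.2 cells. With 92 and 101 of 105 cells positive at E16.5, the overlap had little room to differ. Thinned to 2000 UMIs, the PND7 stroma had 80 cells with both, and the product of the shares gives 64.1. At PND7, 73 of 209 stroma-like cells had Meg3 without Dlk1 and 9 had Dlk1 without Meg3. In granulosa-like cells at PND14, 70 of 94 had Meg3 without Dlk1, 0 had Dlk1 without Meg3 and 1 had both.

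**Figure D3:**
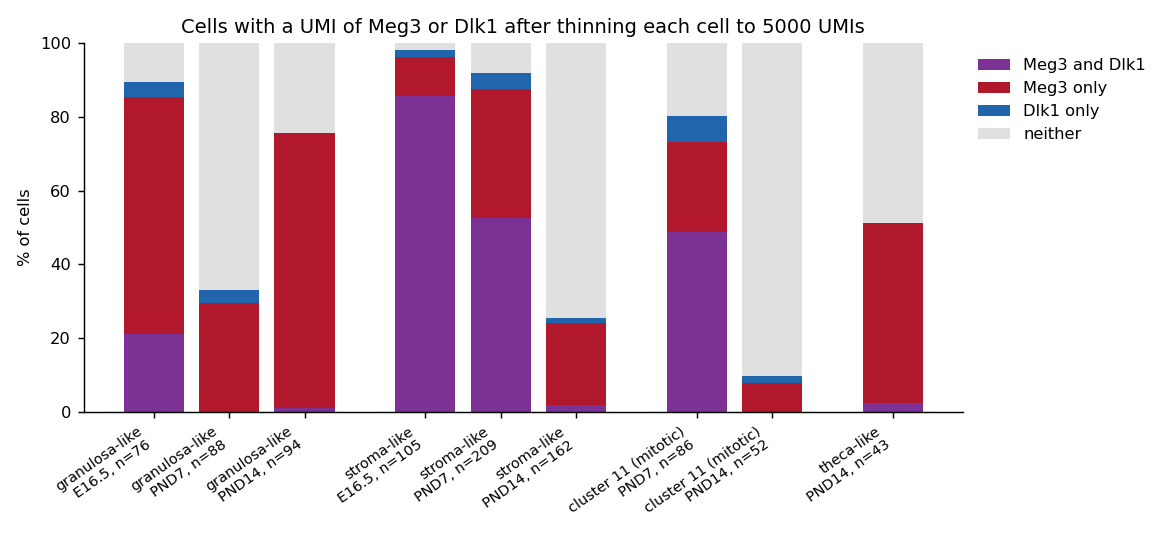
Share of cells (y axis, %) with a UMI of Meg3 and Dlk1, of Meg3 only, of Dlk1 only or of neither, after thinning to 5000 UMIs, by class and age (x axis, with cell numbers). Cells with both make up most of the stroma at E16.5 (90 of 105) and few at PND14 (3 of 162). Meg3 without Dlk1 is the common state of PND14 granulosa-like cells (70 of 94). Of 43 theca-like cells, 21 have Meg3 without Dlk1 and 21 have neither.

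In granulosa-like cells Meg3, Rian and Mirg were all low at PND7 and again near the embryonic level at PND14. Meg3 had 1374, 318 and 1103 UMIs at E16.5, PND7 and PND14, which is 899 CPM at E16.5 (852 to 948), 162 CPM at PND7 (145 to 181) and 674 CPM at PND14 (635 to 715). It was 5.55-fold lower at PND7 than at E16.5 (4.91 to 6.29), and 4.15-fold higher at PND14 than at PND7 (3.66 to 4.72). The PND14 level was still 1.33-fold lower than that of E16.5 (1.23 to 1.45). Rian, with 160, 36 and 159 UMIs, was at 105 CPM at E16.5 (89.1 to 122), 18.4 CPM at PND7 (12.9 to 25.4) and 97.1 CPM at PND14 (82.6 to 113). It was 5.7-fold lower at PND7 than at E16.5 (3.95 to 8.43) and 5.29-fold higher at PND14 than at PND7 (3.67 to 7.82). Its PND14 over E16.5 ratio was 0.927 (0.74 to 1.16), a difference not detectable at this depth. Mirg, the microRNA host, had 20, 0 and 14 UMIs. Set against a floor of 3 UMIs for the count of 0, its PND14 level was 5.59-fold that of PND7, and the exact interval of the ratio begins at 3.97.

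The granulosa-like cells of PND14 and PND7 lay mostly in different clusters, and few cells allow a comparison within one. Cluster 13, led by Amh, Slc18a2 and Krt79, held Meg3 at 119.7 CPM (8 cells, 67 to 198) at PND14 and 123 CPM (83 cells, 107 to 140.0) at PND7. Cluster 14, led by Inha, Inhba, Nap1l5 and Ihh, held it at 719.6 CPM (86 cells, 677 to 764) at PND14 and 751 CPM (5 cells, 606 to 922) at PND7. The ratios of PND14 to PND7 were 0.974 within cluster 13 (0.536 to 1.64) and 0.958 within cluster 14 (0.774 to 1.2). Of the 92 Meg3 UMIs of cluster 14 at PND7, 57 came from 1 cell. Without it the other 4 cells held 350.5 CPM (244 to 487), and Meg3 was 2.05-fold higher at PND14 (1.47 to 2.96). Rian within cluster 14 was at 102 CPM at PND14 against 49 CPM at PND7, with a ratio of 2.08 (0.933 to 5.75), and within cluster 13 at 39.9 CPM against 16.3 CPM, with a ratio of 2.45 (0.741 to 6.37).

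Meg3 was also set beside genes of growing follicles. Of the 88 granulosa-like cells at PND7, 66 had a UMI of Hsd17b1, Inhba or Nr5a2 after thinning, genes of steroid synthesis, activin and gonadal transcription. Those 66 cells held Meg3 at 166 CPM (146 to 189), and the other 22 cells at 151 CPM (119 to 188), a ratio of 1.1 (0.851 to 1.45). At PND14 the 88 cells with such a UMI held 684 CPM (644 to 727), and 6 cells without held 456 CPM (318 to 634). Cells with these genes thus held more Meg3 at PND14 than at PND7. Of those with such a UMI, 82 of 88 were in cluster 14 at PND14, against 4 of 66 at PND7.

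**Figure D4:**
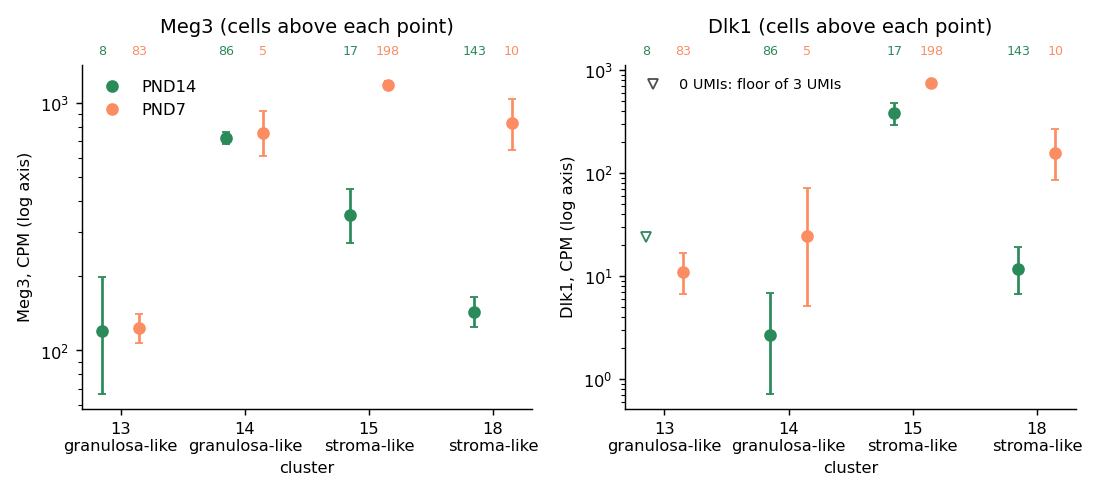
Meg3 (left) and Dlk1 (right) in CPM on log axes within the granulosa-like clusters 13 and 14 and the stroma-like clusters 15 and 18, at PND14 (left point of each pair) and PND7 (right point), with exact Poisson 95% intervals, a triangle at the floor of 3 UMIs where 0 were counted, and cell numbers above. Meg3 has overlapping intervals at both ages within clusters 13 (119.7 and 123 CPM) and 14 (719.6 and 751 CPM, or 350.5 CPM at PND7 without 1 cell), and is lower at PND14 within clusters 15 (352 and 1177 CPM) and 18 (143 and 823 CPM).

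Dlk1 in granulosa-like cells was low after birth. It had 284, 23 and 4 UMIs at E16.5, PND7 and PND14, which is 186 CPM at E16.5 (165 to 209), 11.7 CPM at PND7 (7.44 to 17.6) and 2.44 CPM at PND14 (0.666 to 6.26). The level was 15.8-fold lower at PND7 than at E16.5 (10.4 to 25.4). At PND7 it lay below that of erythroid-like cells (41.3 CPM; 16.6 to 85.1), and is read as background. At E16.5 it was 12.1-fold above erythroid-like cells (8.66 to 17.2) and 4.47-fold below the stroma (3.93 to 5.09). This embryonic level depends on which cells are called granulosa-like: a separate clustering of every library gave 62 such cells at E16.5, with Dlk1 at 25.5 CPM and Meg3 at 644 CPM, against 12.2 CPM and 164 CPM at PND7. The 14 stroma markers summed to 1045 CPM in E16.5 granulosa-like cells, or 20.4% of the stroma level, against 326 CPM at PND7 and 555 CPM at PND14, with none at 0. Their part in the Dlk1 level was not tested. In thinned cells, Dlk1 was seen in 25% of granulosa-like cells at E16.5, 3.41% at PND7 and 1.06% at PND14. Meg3 was seen in 85.5%, 29.5% and 75.5% of them, and the PND7 share does not exceed the 31.0% of blood cells. The Meg3 CPM at PND7 was 9.16-fold that of erythroid-like cells (3.11 to 44.6), which had 3 Meg3 UMIs. It lay below that of immune-like cells, which carried stroma markers at 40.5% of the stroma level.

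The order of levels differed between the ages. At E16.5 Meg3 was highest in the stroma (2219.7 CPM), then surface-epithelium-like cells (1600.1 CPM), then granulosa-like cells (899 CPM). Of the 453 UMIs of surface-epithelium-like cells, 122 were in 1 of 11 cells, and without it they stood at 1297 CPM (1161 to 1445). At PND7 the order was smooth-muscle-like cells (1486 CPM in 14 cells), stroma (1155 CPM), surface epithelium (889.7 CPM) and granulosa (162 CPM). Between the last pair lay cluster 11 (505 CPM), cluster 16 (308 CPM) and immune-like cells. At PND14 the order was surface epithelium (802 CPM, 707 to 906), granulosa (674 CPM), theca (400.3 CPM) and stroma (164 CPM). The intervals of the first and second overlap slightly. Without its highest cell, surface epithelium stood at 693 CPM (600 to 796), close to granulosa. Granulosa-like cells thus held Meg3 2.47-fold below the stroma at E16.5 (2.32 to 2.62), 7.13-fold below it at PND7 (6.34 to 8.03) and 4.1-fold above it at PND14 (3.58 to 4.72). Rian in granulosa-like cells was 17-fold above the stroma at PND14 (8.75 to 37.9).

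Theca-like cells, which make androgens through Cyp17a1, were rich in the maternal RNAs and nearly free of Dlk1, as were granulosa-like cells of PND14. At PND14 they held Meg3 at 400.3 CPM (360.4 to 444), Rian at 36.1 CPM (24.8 to 50.7) and 4 Mirg UMIs, but 2 Dlk1 UMIs (2.19 CPM, 0.265 to 7.9). Meg3 was 2.44-fold higher in theca-like than in stroma-like cells of that library (2.07 to 2.87). It was 1.68-fold lower in theca-like than in granulosa-like cells (1.49 to 1.9). Granulosa markers in theca-like cells summed to 25.4% of the granulosa level and stroma markers to 20.4% of the stroma level, and their part in these levels was not tested.

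Surface-epithelium-like cells were few (11, 15 and 12). Meg3 stood at 1600.1, 889.7 and 802 CPM and Rian at 177, 98.2 and 59.1 CPM. Dlk1 had 174, 15 and 12 UMIs, which is 615 CPM at E16.5 (527 to 713), 46 CPM at PND7 (25.8 to 75.9) and 37.3 CPM at PND14 (19.3 to 65.2). It was 13.4-fold lower at PND7 than at E16.5 (7.88 to 24.4), whereas Meg3 was 1.8-fold lower (1.55 to 2.09). The embryonic values lean on 1 of the 11 cells: after thinning the highest cell held 74 Meg3 UMIs, with a median of 5, and the highest for Dlk1 was 28, with a median of 2. Without its highest cell Dlk1 was at 490.0 CPM at E16.5 (408 to 584). The PND7 level of Dlk1 is close to the 41.3 CPM of erythroid-like cells. Stroma markers in surface-epithelium-like cells summed to 44.1%, 8.19% and 22.9% of the stroma level at E16.5, PND7 and PND14, and granulosa markers to 48.6%, 36.9% and 20.3% of the granulosa level. Their part in these levels was not tested.

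Smooth-muscle-like cells and the cycling cells of cluster 11 held little of either parental side at PND14. Smooth-muscle-like cells held Meg3 at 37.1 CPM and Dlk1 at 2.9 CPM in 127 cells at PND14, against 1486 CPM and 702 CPM in 14 cells at PND7. Most of the PND14 cells (101) were in cluster 17, which had as many stroma as smooth muscle markers raised. Cluster 11, led by the mitotic genes Pimreg, Tubb6 and Mxd3, carried stroma markers at 54.8% of the stroma level at PND14 and 69.4% at PND7. It held Dlk1 at 3.8 CPM in 52 cells at PND14 against 458 CPM in 86 cells at PND7, or 121-fold lower (46.9 to 444). Meg3 there was at 21.8 CPM at PND14 against 505 CPM at PND7, or 23.1-fold lower (15.3 to 36.7). Cluster 16, led by Sct and Hhip, held Meg3 at 21.8 CPM in 25 cells at PND14 against 308 CPM in 32 cells at PND7. Its Dlk1 counts were 0 UMIs at PND14 against 83 UMIs at PND7.

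Endothelium-like and germ-cell-like cells held less Meg3 than granulosa-like and stroma-like cells of the same age. Meg3 stood at 140.0, 63.2 and 62.4 CPM at E16.5, PND7 and PND14, in 19, 21 and 28 cells, and Dlk1 had 10, 15 and 0 UMIs. Germ-cell-like cells held Meg3 at 43.4, 87.7 and 61.3 CPM and Dlk1 at 26.4, 43.3 and 17.5 CPM, beside 15.4 CPM of either RNA in E16.5 erythroid-like cells and 41.3 CPM of Dlk1 in PND7 erythroid-like cells.

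Dio3, the thyroid hormone inactivating enzyme, had few counts, and 11 of its 19 UMIs at PND14 were in stroma-like cells. Stroma-like cells had 3, 4 and 11 Dio3 UMIs at E16.5, PND7 and PND14, which is 1.59 CPM at E16.5 (0.327 to 4.64), 1.83 CPM at PND7 (0.499 to 4.69) and 6.97 CPM at PND14 (3.48 to 12.5). The ratio of PND14 to PND7 was 3.8 (1.13 to 16.4), while that of Dlk1 in the same class was 0.0738. All 11 of the PND14 UMIs were in cluster 18, spread over 8 cells. That cluster held 143 cells at PND14 but 10 at PND7, so the Dio3 ratio cannot be told apart from the change of cluster. Cluster 19 (19 cells, led by Lpl and Hoxd10) had 3 more Dio3 UMIs at PND14. Granulosa-like cells had 2, 0 and 0 Dio3 UMIs and theca-like cells 0. The single Rtl1 UMI of the series was in a stroma-like cell at E16.5.

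The balance of the parental sides was read as the share of Meg3, Rian and Mirg among the UMIs of the 6 genes. In stroma-like cells it was 74.2% at E16.5 (73.1 to 75.3), 62.4% at PND7 (61 to 63.9) and 74% at PND14 (69.2 to 78.4). At PND14, 64 of the 95 paternal UMIs were in 1 cell; without it the share was 89.0% (84.8 to 92.4), and cluster 18, with 143 of the 162 cells, stood at 88.2% (83.2 to 92). In granulosa-like cells it was 84.5% (82.7 to 86.1), 93.9% (91 to 96.1) and 99.7% (99.2 to 99.9). The E16.5 value depends on which cells are called granulosa-like, since a separate clustering of every library gave less Dlk1 there. The PND7 value rests on 23 paternal UMIs at a background level. Alternatives for the share were run in stroma-like cells alone, so no rise from E16.5 to PND7 is read. Theca-like cells stood at 99.5% at PND14. Cluster 11 stood at 53.7% at PND7 (51.1 to 56.3), and erythroid-like cells at 55.9% at E16.5 (45.2 to 66.2). Over all cells the share was 75.6%, 64.6% and 94.7%. At PND14 the stroma value was 50.4% in the 17 cells that a coarser clustering called stroma-like, a set that holds the same cell.

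**Figure D5:**
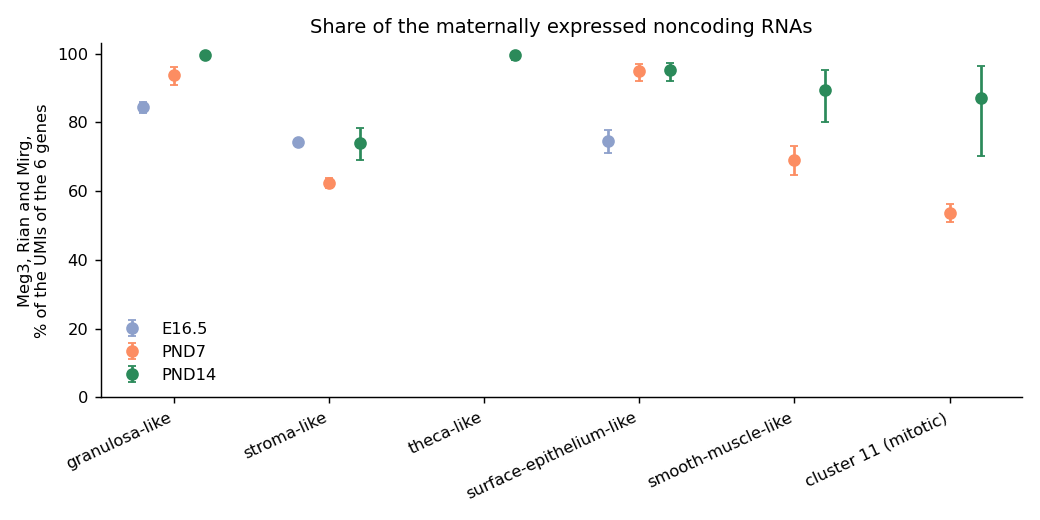
Meg3, Rian and Mirg as a percentage of the UMIs of the 6 genes (y axis, from 0) by class (x axis) at E16.5, PND7 and PND14, with exact Clopper-Pearson 95% intervals. Granulosa-like cells stand at 84.5%, 93.9% and 99.7%, of which the first depends on which cells are called granulosa-like. Stroma-like cells stand at 74.2%, 62.4% and 74%. The last has 64 of its 95 paternal UMIs in 1 cell and is 89.0% without it.

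The proportion of Rian to Meg3 differed between granulosa-like and stroma-like cells. Rian made 10.4% of the Rian and Meg3 UMIs of granulosa-like cells at E16.5 (8.94 to 12.1), 10.2% at PND7 (7.22 to 13.8) and 12.6% at PND14 (10.8 to 14.6). In stroma-like cells it made 6.52% (5.82 to 7.29), 3.33% (2.68 to 4.1) and 3.36% (1.55 to 6.28), below the granulosa-like intervals at every age. Theca-like cells stood at 8.27% (5.76 to 11.4). The proportion in the granulosa-like class thus had overlapping intervals at the 3 ages, although both levels were low at PND7.

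The ages were in the same order in cells with and without signs of mitosis. Granulosa-like cells with a UMI of a mitosis gene after thinning held Meg3 at 915, 177 and 605 CPM at E16.5, PND7 and PND14, and those without at 887, 138 and 754 CPM. Stroma-like cells with such a UMI held Dlk1 at 753, 639 and 5.85 CPM, and those without at 1011, 779.7 and 66.3 CPM. Of the 82 UMIs behind the last value, 64 were in 1 cell.

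Many genes differed between ages, so the members were set beside all genes with 10 or more UMIs over the libraries compared, on the scale of log2(CPM + 10), which understates low genes. In granulosa-like cells at PND7 against E16.5, Meg3, Rian, Mirg and Dlk1 had enough UMIs and all 4 were at least 2-fold lower, beside 5.35% of 13094 genes, and 0 higher, beside 3.29%. At PND14 against PND7, Meg3 and Rian were at least 2-fold higher, beside 1.23% of 12649 genes, and Mirg (0.89) and Dlk1 (-0.80) were not past this size. At PND14 against E16.5, Dlk1 alone was lower, beside 6.45% of 12879 genes, and 0 members were higher, beside 2.91%. In stroma-like cells at PND7 against E16.5, Rian alone was lower, beside 1.87% of 12669 genes, and 0 members were higher, beside 2.2%. At PND14 against PND7, Meg3, Rian and Dlk1 were lower, beside 0.69% of 12169 genes, and 0 members were higher, beside 0.707%. At PND14 against E16.5 Meg3, Rian, Mirg and Dlk1 were lower, beside 3.74% of 12343 genes, and 0 were higher, beside 3.13%. These are the differences the genes were chosen for, and nothing is read from the shares.

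Genes next to the locus and the factors that set imprints were mostly within 2-fold. On this log2 scale the median over all genes was -0.13 in granulosa-like cells at PND7 against E16.5 and -0.02 at PND14 against PND7, and in stroma-like cells -0.03 and -0.06. The maternal RNAs of the locus had medians of -2.02 and 1.92 in granulosa-like cells and -0.94 and -1.67 in stroma-like cells for the same comparisons. Of 12 neighbours outside the locus, such as Yy1, Evl and Wars, 7 to 9 could be measured, and 0 were 2-fold apart in any of the 6 comparisons, with medians between -0.26 and 0.15. Begain, which lies before Dlk1, was at 5.7 CPM at PND14 against 16 CPM at PND7 in stroma-like cells, short of 2-fold on this scale.

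Of 19 factors that set or keep imprints, 17 or 18 could be measured in each comparison. In granulosa-like cells at PND7 against E16.5, 1 of 18 was higher and 0 lower, with a median of -0.10. The higher gene was Uhrf1, which brings DNMT1 to replicating DNA, at 56.6 against 8.51 CPM; in stroma-like cells the same gene was the 1 lower, at 15.1 against 45.5 CPM, with a median of -0.42 for the list. Zfp57, a zinc finger protein that keeps imprints in the early embryo, was at 2.44 CPM at PND14 against 18.3 CPM at E16.5 in granulosa-like cells. At PND14 against PND7, 0 of 18 were higher or lower in either class, with medians of -0.13 in granulosa-like and -0.01 in stroma-like cells.

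Imprinted genes elsewhere in the genome differed in both directions in granulosa-like cells and were lower or within 2-fold in stroma-like cells. Of 16 paternally expressed ones measured in granulosa-like cells at PND7 against E16.5, 2 were higher and 4 lower (median -0.52), among them Plagl1, a growth regulator, at 165 against 30.1 CPM and Mest at 19.4 against 467 CPM. For PND14 against PND7, 2 of 15 were higher and 3 lower (median -0.08). Nap1l5 was at 193 CPM at PND14 against 16.3 CPM at PND7, and Peg3 at 44 against 212 CPM. Of 5 maternally expressed ones, 1 was higher and 3 lower at PND7 against E16.5 (median -1.85), with the noncoding RNA H19 at 30.6 against 2779.9 CPM. None of 5 was apart at PND14 against PND7 (median -0.11), and H19 was at 16.5 against 30.6 CPM. In stroma-like cells at PND14 against PND7, 2 of 13 paternally and 2 of 5 maternally expressed ones were lower and 0 higher (medians -0.44 and -0.52), with Mest at 19.6 against 93.5 CPM and H19 at 2.54 against 91.6 CPM.

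Few Notch genes and DLK1 partners were 2-fold apart. Of 10 measured in granulosa-like cells at PND7 against E16.5, 1 was higher and 1 lower (median 0.06): the receptor Notch1 was at 15.3 against 1.31 CPM, and Fn1, the matrix protein fibronectin that binds DLK1, at 3.57 against 26.8 CPM. Between PND14 and PND7, 1 of 10 was higher in granulosa-like cells (median -0.30), the receptor Notch3. Notch3 is also among the smooth muscle or pericyte markers used to name clusters. In granulosa-like cells those markers summed to 225 CPM at PND14 against 55.1 CPM at PND7, and their part was not tested. In stroma-like cells 0 of 8 were apart (median -0.13). Of the genes of thyroid hormone handling, on which DIO3 acts, the response gene Klf9 was past 2-fold at PND14 against PND7. It was at 86.1 against 31.1 CPM in granulosa-like cells, 1 of 5 measured (median 0.05), and at 176 against 41.7 CPM in stroma-like cells, 1 of 6 (median 0.32). The receptor Thra was at 190.1 against 255 CPM in stroma-like cells.

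Signs of cell state and RNA quality differed between the ages as well. Of 10 mitosis genes, 10 were higher in granulosa-like cells (median 1.46) and 8 lower in stroma-like cells (median -1.69) at PND7 against E16.5. Between PND14 and PND7, 0 were apart in either class (medians -0.81 and -0.40). Of the nuclear RNAs, 0 of 5 were apart in granulosa-like cells at PND14 against PND7 (median 0.30) and 0 of 4 in stroma-like cells (median 0.13). Malat1, a nuclear RNA, was at 16671, 12612 and 22034 CPM in granulosa-like cells at E16.5, PND7 and PND14, lowest at PND7 like Meg3. In stroma-like cells it was at 14259.6, 26572 and 31143 CPM, the opposite order to Meg3. Other nuclear RNAs did not all follow Malat1. In granulosa-like cells Neat1 was lowest at PND7 (143, 81.1 and 102 CPM). Xist (2313, 1378 and 882 CPM) and Kcnq1ot1 (297, 180 and 169 CPM) were lowest at PND14 there. In stroma-like cells Neat1, Xist and Kcnq1ot1 were not higher at PND7 or PND14 than at E16.5. Of 10 dissociation stress genes, 2 were higher and 2 lower in granulosa-like cells at PND7 against E16.5 (median -0.31), with Hspa1a, a heat shock gene, at 262 against 5.24 CPM. In stroma-like cells 2 were higher and 0 lower (median 0.17), with Hspa1a at 472 against 13.2 CPM. At PND14 against PND7, 0 were apart in either class (medians -0.29 and 0.29). The median mitochondrial share was 2.24%, 1.5% and 1.59% in granulosa-like cells and 1.11%, 0.88% and 0.826% in stroma-like cells. The part of these in the levels of the members was not tested.

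Genes most like each member were ranked by Pearson correlation over 17 class and age groups of at least 20 cells, among 6017 genes. The groups share libraries and depth, so r is given as a description. Rian was the gene most like Meg3 (r = 0.897), followed by Igfbp5, an IGF binding protein (0.864), Wnt4, a signal of ovary formation (0.829), Gpc4 and Shisa2. The genes most like Rian were Meg3, Wnt4 (0.88), Srgap3, Igfbp5 and Pde1a. For Mirg they were Rian (0.904), Wnt4, Meg3, Ltbp1 and Srgap3. Dlk1 had none of the maternal RNAs among its 5: these were Shisa2 (0.898), Lsp1 (0.825), Ngfr, Kcne1l and Slit2. The r between Dlk1 and Meg3 was 0.705 and between Dlk1 and Rian 0.503.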

How the data were processed

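Whole mouse ovaries at E16.5, PND7 and PND14 were dissociated with collagenase, filtered and captured with the Chromium 3′ version 2 kit, 1 library per age, and sequenced together on 1 lane, per the labels' protocols and the series' design text. The deposited tables hold raw UMI counts per gene and barcode, made by the authors with Cell Ranger 2.1.1 on GRCm38, per the submitters' processing notes. For the annotation, the cell calling and the use of strand the sources used here give nothing. Of 53465 identifiers, 50604 matched GENCODE M21 with their version.

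Barcodes with under 200 genes or above 20% mitochondrial UMIs were removed, leaving 1548 of 1554. With scanpy 1.11.5 each cell was scaled to 10000, then put on a log scale. Its 2000 top variable genes, without the members and listed genes, gave 30 components, a graph of 15 neighbours and 22 Leiden clusters at resolution 1.0. A cluster took the class with most markers (118 in 9 classes) at least 2-fold above other cells, if 3 or more, and at least 1 of them, and no fewer than of any other class, among its 10 leading genes; 18 were named, and clusters 3 and 17 tied between stroma and smooth muscle. Scrublet marked 1, 3 and 3 cells as doublets, which were kept. UMIs were summed per class and library as CPM with exact Poisson intervals, conditional binomial intervals for ratios and Clopper-Pearson intervals for shares. No test was possible with 1 library per age. Summation and intervals were tested on simulated data. The median cell held 15090.5, 12224 and 11435 UMIs, and the lowest 6747, 6291 and 5568.

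The members, the marker classes and 12 gene lists (113 genes) were chosen with earlier results of these data known. Named genes were the 6 members, the 5 genes most like each (level of at least 50 CPM in 1 group), and genes from the 2 at each end of a list.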

Additional observations from a re-analysis of the deposited data

Results flagged for a closer look

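The summed levels of the maternal RNAs moved in opposite directions in granulosa-like and stroma-like cells at PND14 against PND7. The difference between the classes was not tested, since each age has 1 library. The granulosa-like cells of these ages lay mostly in different clusters. Within clusters 13 and 14 the Meg3 log2 ratios were -0.038 and -0.062, and without 1 PND7 cell Meg3 was 2.05-fold higher within cluster 14. Rian was higher within both clusters, with intervals that include no difference. The ratio of CPM of PND14 to PND7 for Meg3 was 4.15 in granulosa-like and 0.142 in stroma-like cells. For Rian it was 5.29 in granulosa-like and 0.143 in stroma-like cells. For Mirg, from 14 UMIs at PND14 and 0 UMIs at PND7, it was 5.59 in granulosa-like cells when the 0 is set to a floor of 3 UMIs (the exact interval of the ratio begins at 3.97), and 0.198 in stroma-like cells.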

How the results depend on the processing

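Alternatives are given as log2 ratios of CPM. Leaving out the 3 cells with most UMIs or the single highest, staying within a cluster, leaving out cells with Upk3b or Upk1b, the gates, and every alternative for the granulosa-like ratios of PND14 to PND7 were chosen after seeing the data. Of the alternatives run, 99 moved values by less than counting error (for counts, under 1.5 times). Another 54 moved them further and 3 turned the direction. Beyond the constructions named here the cause was not tested. Some of the 99 could change nothing: leaving out doublets, or cells above 5% mitochondrial UMIs, removed no stroma-like cell at E16.5 or PND7. The number 99 is therefore no measure of how stable the results are. The Dlk1 ratio of PND7 to E16.5 in stroma-like cells, -0.20, turned to 0.24 at Leiden resolution 2.0, and was -0.067 with each library clustered alone, -0.63 with a marker gate per cell, -0.32 without cells above 3 times the median UMIs and -0.37 without the 3 highest cells. Its ratio of PND14 to PND7 was -3.76. That ratio was -0.94 at resolution 0.5, -4.23 at 2.0, -4.18 with the gate, -6.86 without the 3 highest cells and -0.98 within cluster 15. For Dlk1 and for Meg3, the PND14 levels at resolution 0.5 and within cluster 15 come from the same 17 cells. Of their 68 Dlk1 UMIs, 64 were in 1 cell. For Meg3 in stroma-like cells, PND7 to E16.5 was -0.94, and -0.69 at resolution 2.0, -1.54 with the gate, -1.03 on totals without mitochondrial, ribosomal and haemoglobin genes, and -0.85 as a mean of cells. PND14 to PND7 was -2.82, and -1.71 at resolution 0.5, -3.20 at 2.0, -3.07 without the 3 highest cells, -1.74 within cluster 15 and -2.52 within cluster 18. In granulosa-like cells, Dlk1 at PND7 to E16.5 was -3.99, and -1.07 with each library clustered alone. Meg3 at PND7 to E16.5 was -2.47, and -1.97 with each library clustered alone and -2.80 without the 3 highest cells. Meg3 at PND14 to PND7 was 2.05, and 1.87 with each library clustered alone, 2.32 as a mean of cells and 2.40 without the 3 highest cells, but -0.038 within cluster 13 and -0.062 within cluster 14 (1.04 there without the highest PND7 cell). Dlk1 at PND14 to PND7 in granulosa-like cells, -2.26, lay between -3.75 and -1.44 in 11 alternatives. Resolution 0.5 put no E16.5 cell in either class, so it gave no E16.5 value.

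The maternal share of stroma-like cells, 74.2% at E16.5, was 72.0% as a mean of cells and 71.7% without cells of high UMIs. At PND7, 62.4%, it was 59.4% with each library clustered alone, 59.6% at resolution 2.0 and 59.7% with the gate. At PND14, 74.0%, it was 50.4% at resolution 0.5 and 89.0% without the cell of most paternal UMIs. Thinned to 2000 UMIs, Meg3 was seen in 67.1%, 18.2% and 53.2% of granulosa-like cells at E16.5, PND7 and PND14, and unthinned in 94.7% at E16.5 and 55.7% at PND7. Dlk1 was seen in 66.7% of stroma-like cells at E16.5 and 41.6% at PND7 at 2000 UMIs, and unthinned in 94.3% and 71.8%. Cells with Dlk1 and Meg3 together over the number expected in PND7 stroma were 1.25 at 2000 UMIs. With a pseudocount of 1 CPM in place of 10, genes at least 2-fold higher and lower in granulosa-like cells numbered 1020 and 1971 for PND7 to E16.5 (431 and 701 with 10), 870.0 and 2031 for PND14 to E16.5 (375 and 831), and 635 and 730.0 for PND14 to PND7 (155 and 155). In stroma-like cells they numbered 824 and 1093 (279 and 237), 909 and 1515 (386 and 462), and 415 and 676 (86 and 84).

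No paired analysis was possible because each age has 1 library. That also leaves age, library and animal unseparated, and intervals cover counting error only.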
